A study of Homo sapiens with 32 samples.

Results

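The extracellular matrix genes examined here encode collagens, laminins, a set of matrix glycoproteins, the integrins that bind them, and the enzymes and inhibitors that modify them. Members were the coding RefSeq rows (NM_ identifiers) whose current symbol belongs to the COL, LAMA, LAMB, LAMC, ITGA, ITGB, LOX, PLOD, P4HA, TIMP, ADAMTS or MMP families, or is FN1, FBN1, FBN2, THBS1, HSPG2, AGRN, NID1 or NID2. MMP1 and the integrin-binding proteins that share the ITGB prefix were left out. This gave 72 transcripts of 64 genes out of 12966 transcripts with rates in both lines. Matrix components made up 30 of them, integrins 15, and enzymes and inhibitors 27. The ADAMTS prefix also takes in the ADAMTSL proteins, which resemble the ADAMTS proteases but lack their protease domain.

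Collagen chains are hydroxylated on proline (by P4HA enzymes) and on lysine (by PLOD enzymes) in the endoplasmic reticulum before they fold into a helix, and LOX enzymes cross-link them after secretion. Laminins and type IV collagen form the basement membrane, the sheet on which epithelia rest. Integrins pair an alpha with a beta chain to bind these proteins, MMP and ADAMTS proteases cleave them, and TIMP proteins inhibit the proteases.

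RNA made during a 2 h pulse of 4-thiouridine, a uridine analogue, was followed at 0, 2, 4 and 7 h in MDA-LM2 cells and in MDA-MB-231 cells. MDA-MB-231 is an established line from a human breast cancer, and MDA-LM2 was derived from it by selection for growth in the lung, so the comparison sets 1 derived line against its parent. Both lines were grown and labelled in the same way, with 16 libraries for each line. Each line has 4 replicate series (numbered 1 to 4), with 1 deposited decay rate per transcript in each.

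A rate is positive where abundance fell with time, so a lower rate in MDA-LM2 means slower decay there. Rates are given in the deposited unit, errors are SDs across a line's 4 series, and differences are MDA-LM2 minus MDA-MB-231 with the standard error of the limma fit. The labels number the series with a pair of digits. Series 1 and 3 share the second digit, as do series 2 and 4, while series 1 and 2, and series 3 and 4, share the first. Within MDA-LM2 the rates of series with the same second digit correlated at Spearman 0.907 and 0.879 over the 8496 transcripts described next, against 0.735 to 0.752 for other pairs, those with the same first digit included. Within MDA-MB-231 these values were 0.781 and 0.637, against 0.303 to 0.434. The 4 series of a line are therefore not 4 independent samples. The labels do not state that the series are separate cultures, so a p-value here reflects the variation among series, which may be technical. For each transcript called over all series, the text also gives the p of a fit that estimates a correlation between series sharing the second digit (0.460 over all transcripts). Calls that appear only with centred series, in-range transcripts, limited rates, 1 median per gene or a series left out are named as such, and those settings do not allow for this correlation unless stated. A transcript not called over all series but passing with 1 series left out did so in no other such fit. That series lay apart from the others of its line, so such a p is not read as a call.

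Most rates lay within 1 of 0, and member values beyond it gathered between 2 and 3 and above 9. All 8 rates lay within 1 of 0 for 57 of the 72 members (79.2%) and for 8496 of all 12966 transcripts (65.5%); these are called in range. Rates do not measure level, and read depth is unknown. Of marker genes for cell types, 3 of 5 epithelial genes (EPCAM, KRT18 and KRT19) and VIM, a mesenchymal marker, had rows in both tables, while 0 of 6 fibroblast, 0 of 4 endothelial and 1 of 4 leukocyte genes (CD68) did.

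Matrix transcripts were called different between the lines about as often as all transcripts. Most of these calls were lost with the estimated correlation between series. In limma, 5 of 72 members (6.94%) decayed more slowly in MDA-LM2 at a Benjamini-Hochberg adjusted p under 0.05, beside 6.04% of all transcripts. They were PLOD1, P4HA1 (NM_000917), LOXL4, COL4A2 and a short FN1 form (NM_054034). The 2 members (2.78%) that decayed faster in MDA-LM2 were MMP16 and TIMP2, beside 1.9% of all transcripts. These shares lie near those of all transcripts. With every series centred on its median, 4 members were called slower and 5 faster, and 622 and 442 of all transcripts, against 783 and 246 without centring.

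With the estimated correlation between series, LOXL4 was the only slower call and MMP16 the only faster call among members, beside 2.97% slower and 0.285% faster of all transcripts. Fitted on the in-range transcripts alone, 4 members were slower and 3 faster, beside 6.64% and 3.4%. All 4 MDA-LM2 rates lay below all 4 MDA-MB-231 rates for 13 members, beside 16.6% of all transcripts, and above them for 7 members, beside 5.83%.

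**Figure D1:**
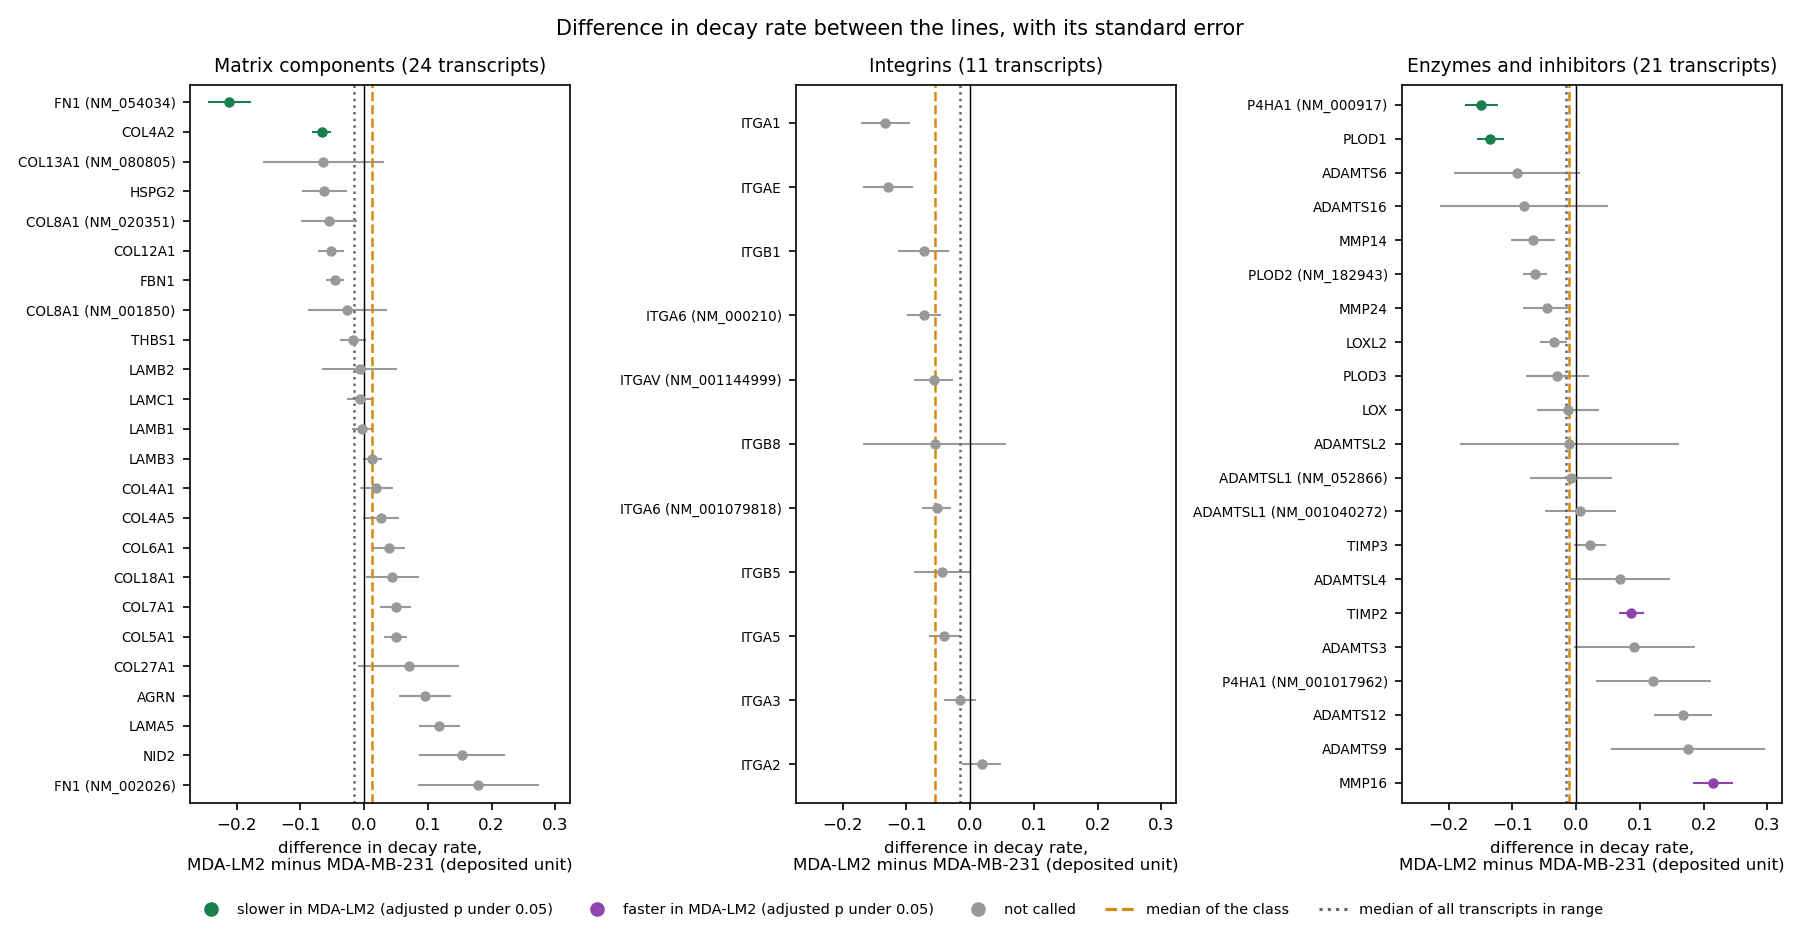
Difference in decay rate, MDA-LM2 minus MDA-MB-231, for 56 of the 57 in-range matrix transcripts by class, in the deposited unit. Points are differences with their standard error, colours mark calls at an adjusted p under 0.05, the dashed line is the median of the class and the dotted line that of all in-range transcripts (-0.0166). Among integrins 10 of 11 points lie left of 0, beside 4881 of all 8496 in-range transcripts with a lower mean in MDA-LM2.

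The share of transcripts with a lower mean in MDA-LM2 is given by class, with no test between classes. The integrin rates were lower in MDA-LM2 for 13 of 15 transcripts, against 15 of 30 for matrix components and 18 of 27 for enzymes and inhibitors, beside 66.2% of all transcripts. The median difference was -0.0573 for integrins, 0.00477 for matrix components and -0.0356 for enzymes, beside -0.0538 over all transcripts. Over in-range transcripts the medians were -0.0554 for integrins, 0.0128 for matrix components and -0.0111 for enzymes, beside -0.0166. Members of a class were chosen with results known, so these medians carry no test.

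The class medians by series show where the lines overlap. In-range integrin medians were 0.0471, 0.0811, 0.0566 and 0.0721 in MDA-LM2 (series 1 to 4), against 0.0779, 0.162, 0.124 and 0.146 in MDA-MB-231. Only the highest MDA-LM2 and the lowest MDA-MB-231 integrin median overlapped. Component medians were 0.114, 0.142, 0.117 and 0.109 in MDA-LM2, against 0.118, 0.126, 0.149 and 0.105 in MDA-MB-231, and enzyme medians were 0.138, 0.222, 0.138 and 0.178 in MDA-LM2, against 0.194, 0.113, 0.180 and 0.176 in MDA-MB-231. Both classes overlapped between the lines. Integrins had the lowest mean of series medians in MDA-LM2 (0.0643 ± 0.0152, n = 4), against 0.120 ± 0.0145 for components and 0.169 ± 0.0400 for enzymes. In MDA-MB-231 integrins (0.128 ± 0.0365) and components (0.125 ± 0.0183) lay within their spread of each other.

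**Figure D2:**
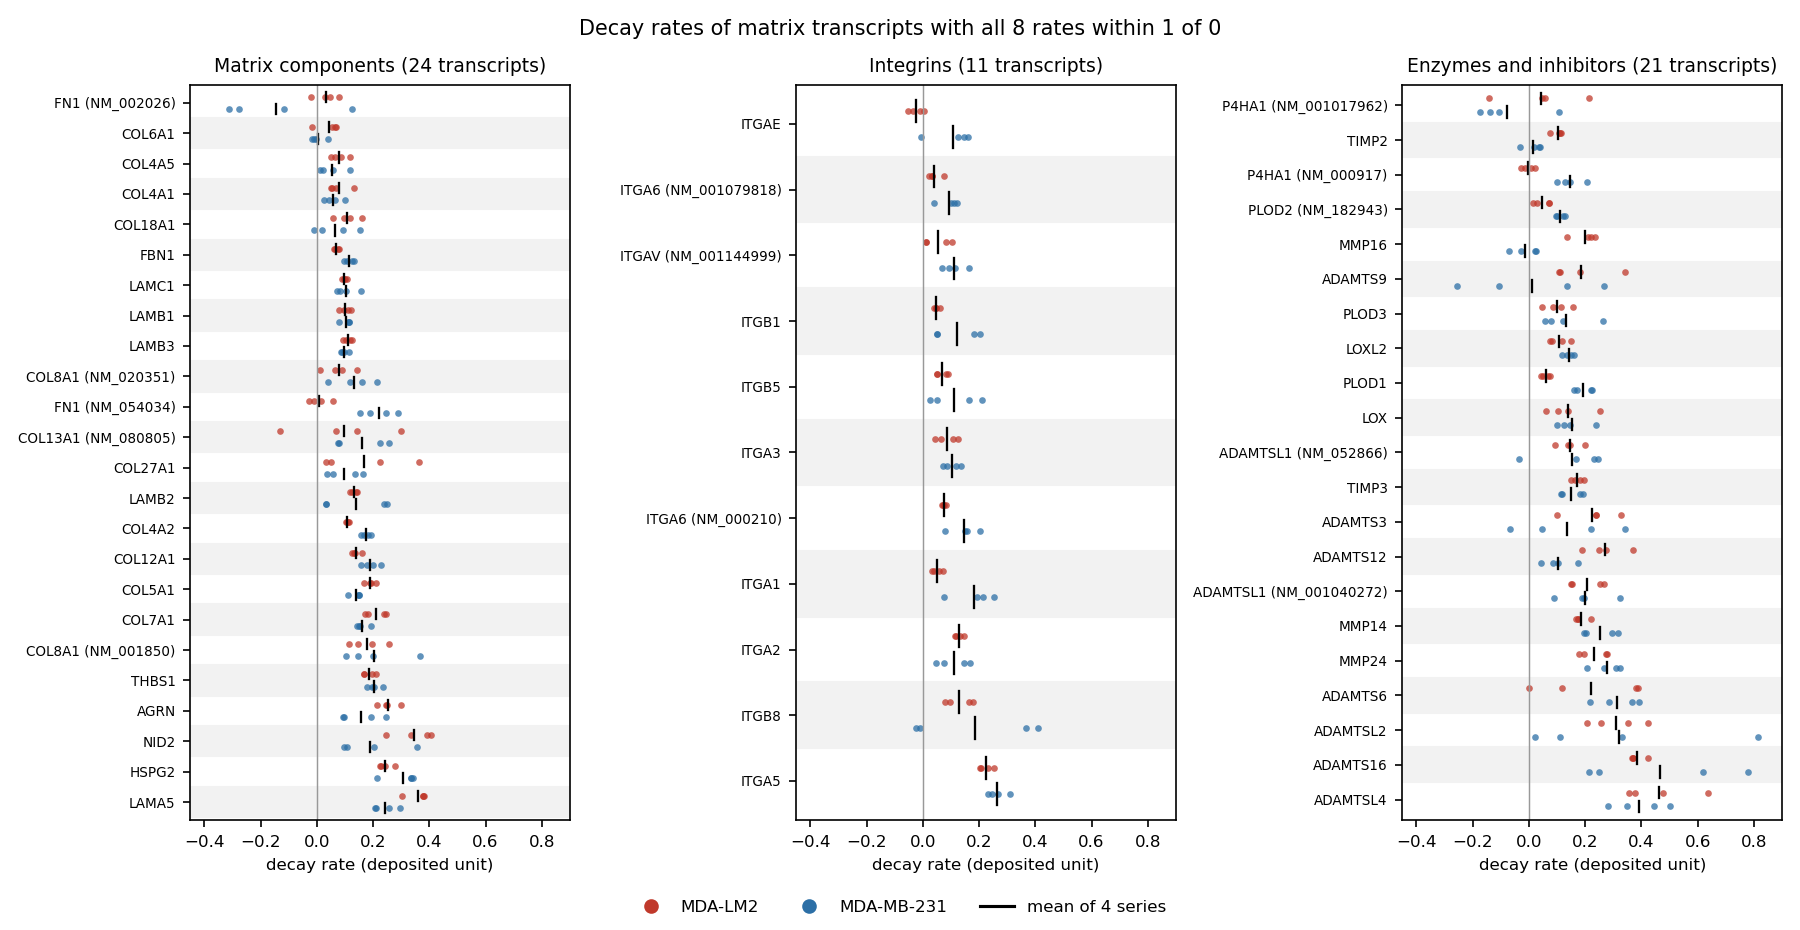
Decay rates in the deposited unit for 56 of the 57 in-range matrix transcripts, sorted within each class by their mean over both lines. Each point is 1 series, with MDA-LM2 in red above MDA-MB-231 in blue, and black bars are means of 4 series; MDA-MB-231 points spread more widely, with a median SD over all 57 of 0.0365 in MDA-LM2, against 0.0595 in MDA-MB-231.

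Among the collagens, COL4A2, a chain of the basement membrane collagen IV, was called slower in MDA-LM2, and its partner chain COL4A1 was not called. COL4A2 (NM_001846) had rates of 0.102, 0.116, 0.107 and 0.109 in MDA-LM2, against 0.181, 0.192, 0.169 and 0.159 in MDA-MB-231. Every MDA-LM2 rate was lower than every MDA-MB-231 rate, and the difference was -0.0667 ± 0.0145 (SE; limma, adjusted p = 0.0381). That call was lost with an estimated correlation (adjusted p = 0.175) and with centred series (adjusted p = 0.172), and it held in 2 of the 8 fits that each left out 1 series.

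COL4A1 (NM_001845), encoded head to head with COL4A2 on chromosome 13, had rates of 0.0520, 0.133, 0.0697 and 0.0555 in MDA-LM2, against 0.101, 0.0446, 0.0647 and 0.0245 in MDA-MB-231. The lines overlapped, and the difference was 0.0191 ± 0.0255 (SE; limma, adjusted p = 0.626). Whether the 2 chains differ from each other in this was not tested.

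Of the fibrillar and other collagens, COL5A1, which limits the width of collagen fibrils, had rates of 0.189, 0.212, 0.191 and 0.168 in MDA-LM2, against 0.112, 0.148, 0.151 and 0.149 in MDA-MB-231. All MDA-LM2 rates were the higher ones, with a difference of 0.0497 ± 0.0180 that did not pass (limma, adjusted p = 0.139; adjusted p = 0.394 with an estimated correlation) unless series were centred (adjusted p = 0.0475). COL18A1, a basement membrane collagen that releases endostatin, averaged 0.108 ± 0.0426 in MDA-LM2, against 0.0637 ± 0.0746 in MDA-MB-231, within the spread.

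The 3 chains of collagen VI, which forms beaded microfilaments, are described next, and none of them passed over all series with rates as deposited. COL6A1 averaged 0.0428 ± 0.0407 in MDA-LM2, against 0.00379 ± 0.0258 in MDA-MB-231, close to 0 in both lines. COL6A2 had rates of 0.0404, 0.103, 2.32 and 0.0247 in MDA-LM2, against -1.50, -1.71, -0.0259 and -0.127 in MDA-MB-231. COL6A3 (NM_057167) had rates of -0.183, -0.0828, -0.0428 and 0.0130 in MDA-LM2, against 9.37, 2.74, 9.48 and 2.81 in MDA-MB-231. For this COL6A3 row the lines did not overlap, and the MDA-MB-231 values fell into the clusters above 9 and between 2 and 3 by second digit. Its difference was -6.17 ± 1.91 (limma, adjusted p = 0.103). With rates limited to -1 to 1 the adjusted p was 0.000289, and 0.00221 with the correlation as well. Another COL6A3 row, with rates in MDA-MB-231 alone, went the other way there, with -0.122, -0.215, -8.38 and -8.26. The gene's rates in MDA-MB-231 are therefore not settled by the compared row.

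No laminin chain passed the threshold over all series with rates as deposited. LAMA5, the alpha chain of a widespread basement membrane laminin, had rates of 0.379, 0.378, 0.381 and 0.303 in MDA-LM2, against 0.296, 0.207, 0.256 and 0.211 in MDA-MB-231. All MDA-LM2 rates were higher, but the difference of 0.118 ± 0.0322 did not pass (limma, adjusted p = 0.0760; adjusted p = 0.243 with an estimated correlation) unless series were centred (adjusted p = 0.0416). For the chains it pairs with, the rates of the lines overlapped. LAMB1 averaged 0.101 ± 0.0178 in MDA-LM2, against 0.105 ± 0.0176 in MDA-MB-231. LAMC1 averaged 0.0982 ± 0.00648 in MDA-LM2, against 0.105 ± 0.0375 in MDA-MB-231.

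LAMA5 decayed faster than LAMB1 and LAMC1 in both lines, with no overlap between their series within a line. LAMA3 and LAMB3 are chains of an epithelial laminin that anchors cells through ITGA6 with ITGB4. LAMB3 averaged 0.110 ± 0.0145 in MDA-LM2, against 0.0969 ± 0.0122 in MDA-MB-231. LAMA3 had rates of 0.210, 0.244, 0.192 and 0.188 in MDA-LM2, against 2.21, -1.57, 2.25 and 0.282 in MDA-MB-231. The LAMA3 series of MDA-MB-231 thus lay on both sides of the MDA-LM2 rates.

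Fibronectin, a glycoprotein that cells bind through integrins, has 2 rows with rates in both lines. They are a long form (NM_002026, coding length 7065 bases) and a truncated form known as migration-stimulating factor (NM_054034, coding length 1971 bases). The truncated form carries its own ending, and 92.4% of its bases are shared with the long form. Only 30 coding bases of the truncated form are absent from the long form, which has 5124 coding bases of its own. The last 45 coding bases of each row are shown because the different endings define the forms, with the stop codon in capitals (chromosome 2, GENCODE release 29 transcripts, 5′ to 3′).
FN1 NM_054034: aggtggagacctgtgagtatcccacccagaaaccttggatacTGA
FN1 NM_002026: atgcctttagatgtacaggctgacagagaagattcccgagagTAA

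The truncated form had rates of -0.0289, 0.0560, -0.00878 and 0.0148 in MDA-LM2, against 0.247, 0.155, 0.187 and 0.288 in MDA-MB-231. Every MDA-LM2 rate was lower, close to 0, and the difference was -0.211 ± 0.0345 (SE; limma, adjusted p = 0.0131; adjusted p = 0.101 with an estimated correlation). It was called in 7 of the 8 fits that left out 1 series. The long form had rates of 0.0795, -0.0198, 0.0477 and 0.0293 in MDA-LM2, against -0.117, 0.126, -0.278 and -0.312 in MDA-MB-231, so MDA-MB-231 series 2 lay apart from the other 3. Its difference of 0.179 ± 0.0950 did not pass (limma, adjusted p = 0.285). Without MDA-MB-231 series 2 it was 0.270 and passed (adjusted p = 0.0275). A further FN1 row, with rates in MDA-LM2 alone, had 2.03, 1.12, 0.440 and 0.962 there. Another, with rates in MDA-MB-231 alone, had -1.87, -0.129, -0.139 and 9.22.

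How reads from the shared bases were divided between the forms is not given in the sources used here, and a median over both FN1 rows differed by -0.0159 between the lines (limma, adjusted p = 0.799). The plot of transcript and chain pairs shows both forms beside P4HA1 and collagen IV.

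**Figure D3:**
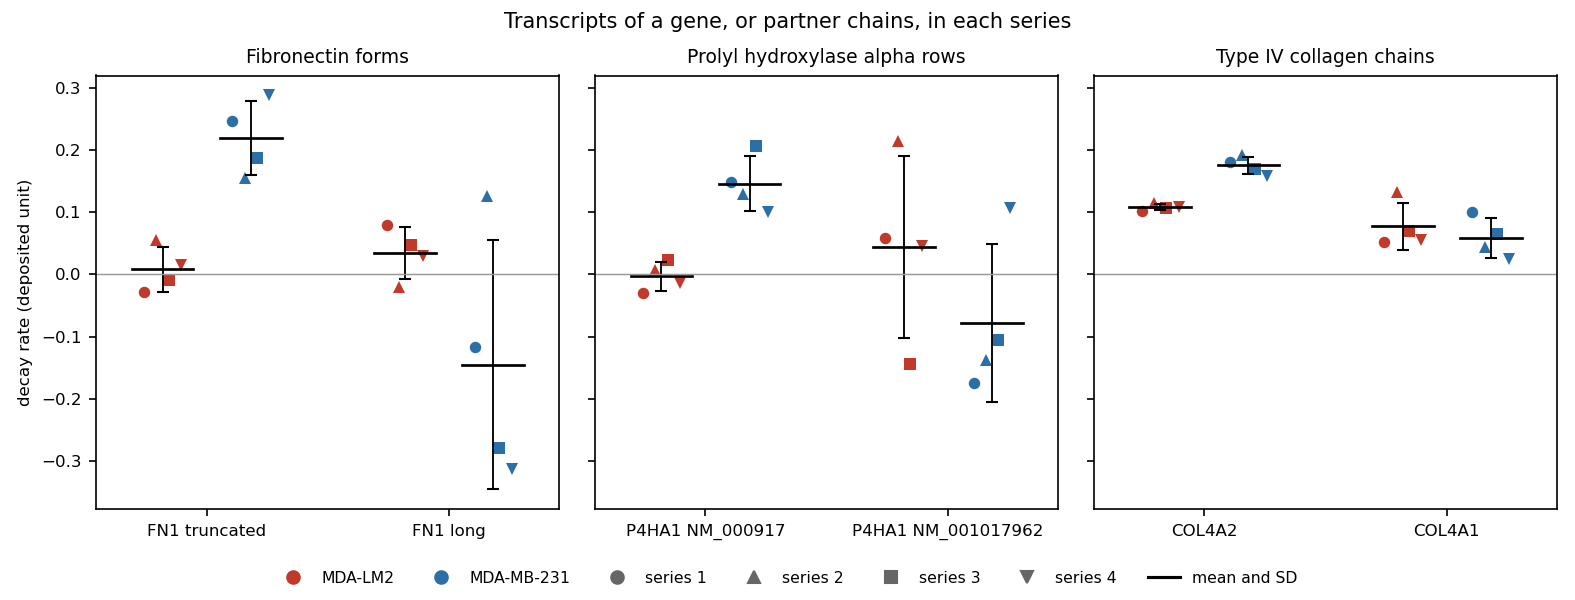
Decay rates in the deposited unit for pairs of transcripts of 1 gene (FN1, P4HA1) and for partner chains (COL4A2, COL4A1), with MDA-LM2 left of MDA-MB-231 in each pair. Each mark is 1 series, with shapes for series 1 to 4, and bars are the mean and SD of 4 series. The truncated FN1 form and P4HA1 NM_000917 lie lower in MDA-LM2 with no overlap. The other row shown of each gene has a higher mean in MDA-LM2 and overlaps.

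For the other glycoproteins named by rule the rates of the lines overlapped. THBS1, thrombospondin, averaged 0.186 ± 0.0204 in MDA-LM2, against 0.203 ± 0.0238 in MDA-MB-231. HSPG2, the basement membrane proteoglycan perlecan, averaged 0.244 ± 0.0242 in MDA-LM2, against 0.307 ± 0.0623 in MDA-MB-231. NID2, which links laminin to collagen IV, had rates of 0.404, 0.247, 0.392 and 0.334 in MDA-LM2, against 0.0977, 0.204, 0.106 and 0.356 in MDA-MB-231. AGRN, agrin, had rates of 0.247, 0.299, 0.213 and 0.251 in MDA-LM2, against 0.192, 0.0979, 0.246 and 0.0945 in MDA-MB-231. Both had the higher mean in MDA-LM2 without passing (limma, adjusted p = 0.211 for NID2 and 0.204 for AGRN). FBN1, the fibrillin of elastic microfibrils, was not picked by the rule and is named for its lack of overlap, seen in the values, with 0.0697 ± 0.00754 in MDA-LM2, against 0.115 ± 0.0158 in MDA-MB-231 (limma, adjusted p = 0.103).

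The remaining 8 component transcripts, of COL12A1, COL13A1, COL27A1, COL4A5, COL7A1, COL8A1 (both rows) and LAMB2, had differences between -0.0640 and 0.0699. None of them passed. LAMB2 showed the pairing of series plainly, with 0.138, 0.143, 0.127 and 0.119 in MDA-LM2, against 0.0311, 0.240, 0.0327 and 0.251 in MDA-MB-231.

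No integrin transcript passed the limma threshold, and 4 of the 15 had an unadjusted p under 0.05, beside 3270 of all 12966 transcripts. The lowest adjusted p was 0.0870, for ITGA1, and 0.328, for ITGAE, with an estimated correlation. ITGA1, a collagen-binding alpha chain, had rates of 0.0320, 0.0701, 0.0566 and 0.0389 in MDA-LM2, against 0.192, 0.253, 0.213 and 0.0735 in MDA-MB-231. All MDA-LM2 rates were lower, narrowly so against MDA-MB-231 series 4, and without MDA-MB-231 series 4 the difference was -0.170 and passed (adjusted p = 0.00647). Over all series the adjusted p was 0.355 with an estimated correlation. ITGAE, which pairs with ITGB7 to bind E-cadherin, had rates of -0.0525, -0.0351, 0.00451 and -0.00965 in MDA-LM2, against -0.00811, 0.162, 0.124 and 0.146 in MDA-MB-231. Here MDA-MB-231 series 1 alone overlapped with MDA-LM2. Over all series the difference did not pass (limma, adjusted p = 0.0987). It passed only in the fit without that series (-0.167, limma, adjusted p = 0.00517).

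ITGB1, the beta chain shared by most matrix-binding integrins, had rates of 0.0471, 0.0604, 0.0451 and 0.0397 in MDA-LM2, against 0.0502, 0.202, 0.0496 and 0.181 in MDA-MB-231. The MDA-MB-231 values split by the second digit. With the lines matched by that digit, which does not pair them, the difference was -0.00377 over series 1 and 3 and -0.141 over series 2 and 4. ITGB8, which binds latent TGF-beta, split the other way, with 0.0799, 0.179, 0.165 and 0.0959 in MDA-LM2, against 0.410, -0.0107, 0.368 and -0.0254 in MDA-MB-231. Its difference was -0.266 over series 1 and 3 and 0.156 over series 2 and 4. ITGB5, a partner of ITGAV that the rule did not pick, averaged 0.0684 ± 0.0203 in MDA-LM2, against 0.112 ± 0.0880 in MDA-MB-231.

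The alpha chains that pair with ITGB1 spread over a wide range. ITGA5, the fibronectin receptor chain, had the highest in-range integrin rate in both lines, at 0.223 ± 0.0221 in MDA-LM2, against 0.264 ± 0.0338 in MDA-MB-231. ITGA3, a laminin receptor chain, averaged 0.0857 ± 0.0379 in MDA-LM2, against 0.102 ± 0.0285 in MDA-MB-231. ITGA2, a collagen receptor chain, averaged 0.127 ± 0.0152 in MDA-LM2, against 0.109 ± 0.0574 in MDA-MB-231, and was the only in-range integrin with a higher mean in MDA-LM2. Centring the series turned the difference of ITGA3 to 0.00697.

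ITGA6, which pairs with ITGB1 or ITGB4 to bind laminin, has 2 rows with different cytoplasmic ends. NM_000210 had rates of 0.0825, 0.0687, 0.0764 and 0.0721 in MDA-LM2, against 0.0779, 0.203, 0.151 and 0.156 in MDA-MB-231. NM_001079818 had rates of 0.0221, 0.0743, 0.0331 and 0.0323 in MDA-LM2, against 0.122, 0.0389, 0.110 and 0.101 in MDA-MB-231. Both rows had 3 of 4 MDA-MB-231 rates above all MDA-LM2 rates, with series 1 the low one for the first row and series 2 for the second. Neither passed over all series (limma, adjusted p = 0.150 and 0.212), while the median over both rows differed by -0.0622 and did (adjusted p = 0.0344). Without MDA-MB-231 series 1 the NM_000210 difference was -0.0951 and passed (limma, adjusted p = 0.0367).

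ITGB4, the hemidesmosome partner of ITGA6, averaged 0.118 ± 0.0246 in MDA-LM2. In MDA-MB-231 its rates were 0.0923, 0.123 and 0.0886 in series 1 to 3 and 1.53 in series 4. ITGAV, which binds fibronectin and vitronectin, has 2 rows of opposite sign. NM_001144999 averaged 0.0524 ± 0.0479 in MDA-LM2, against 0.110 ± 0.0402 in MDA-MB-231, and NM_002210 averaged -0.0598 ± 0.218 in MDA-LM2, against -0.279 ± 0.550 in MDA-MB-231.

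Over the 15 integrin transcripts, 9 had a lower MDA-LM2 mean both over series 1 and 3 and over series 2 and 4, and 0 had a higher one in both. Of all 12966 transcripts, 5112 were lower in both and 2451 higher in both. For matrix components these counts were 8 lower and 12 higher of 30, and for enzymes 13 lower and 5 higher of 27. Over all transcripts 58.3% had the same sign in both sets of series, against 65.3% of members. The sets match the lines by the second digit alone, which does not pair them, so another matching could give other counts.

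Of the enzymes that hydroxylate collagen, PLOD1 and 1 of the P4HA1 rows were called slower in MDA-LM2. PLOD1 (NM_000302), a lysyl hydroxylase, had rates of 0.0693, 0.0432, 0.0743 and 0.0491 in MDA-LM2, against 0.224, 0.160, 0.170 and 0.221 in MDA-MB-231. The lines lay well apart, with a difference of -0.135 ± 0.0210 (SE; limma, adjusted p = 0.0108; adjusted p = 0.0799 with an estimated correlation), and the call held in all 8 fits that left out 1 series. PLOD2, the lysyl hydroxylase of the collagen telopeptides, has 2 rows that differ by 63 coding bases. NM_182943 had rates of 0.0285, 0.0729, 0.0149 and 0.0719 in MDA-LM2, against 0.0945, 0.128, 0.122 and 0.101 in MDA-MB-231. NM_000935 had rates of 0.0807, 0.050, 0.106 and -0.0603 in MDA-LM2, against 0.256, 2.79, 0.970 and 2.76 in MDA-MB-231. All MDA-LM2 rates of both rows were below all MDA-MB-231 rates, but neither row passed with rates as deposited (limma, adjusted p = 0.0949 and 0.140). With limited rates NM_000935 passed (limma, adjusted p = 0.0375), though not with the correlation as well (adjusted p = 0.216). PLOD3 overlapped, at 0.101 ± 0.0463 in MDA-LM2, against 0.131 ± 0.0928 in MDA-MB-231.

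P4HA1, the catalytic alpha chain of the enzyme that hydroxylates collagen proline, also has 2 rows with rates in both lines. They share 97.5% of their bases and have the same untranslated regions and coding length (1602 bases), and differ by a coding segment of 71 bases each. These segments, on chromosome 10 in GENCODE release 29 transcripts, are shown because they are all that tells the rows apart. Bases absent from the other row are in capitals, 5′ to 3′.
P4HA1 NM_000917: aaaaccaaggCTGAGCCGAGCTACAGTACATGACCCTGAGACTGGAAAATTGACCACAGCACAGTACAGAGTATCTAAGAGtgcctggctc
P4HA1 NM_001017962: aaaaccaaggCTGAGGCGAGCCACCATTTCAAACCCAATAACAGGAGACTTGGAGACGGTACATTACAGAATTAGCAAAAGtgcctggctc

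NM_000917 had rates of -0.0294, 0.00641, 0.0231 and -0.0132 in MDA-LM2, against 0.148, 0.129, 0.206 and 0.10 in MDA-MB-231. The MDA-LM2 rates lay around 0 and all below those of MDA-MB-231, with a difference of -0.149 ± 0.0256 (SE; limma, adjusted p = 0.0162; adjusted p = 0.0830 with an estimated correlation). It was called in 6 of the 8 fits that left out 1 series. NM_001017962 had rates of 0.0580, 0.214, -0.144 and 0.0460 in MDA-LM2, against -0.175, -0.137, -0.106 and 0.107 in MDA-MB-231. The lines overlapped, and the difference was 0.121 ± 0.0900 (limma, adjusted p = 0.410). A median over both rows differed by -0.0139 and did not pass (adjusted p = 0.834).

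P4HA2, the other alpha chain measured, averaged -0.0217 ± 0.135 in MDA-LM2, while its MDA-MB-231 rates were 2.82, 0.233, 0.106 and 0.0365. P4HB, the beta subunit of the enzyme and a protein disulfide isomerase, averaged 0.0429 ± 0.0109 in MDA-LM2, against 0.0370 ± 0.0341 in MDA-MB-231, with no difference called (limma, adjusted p = 0.849).

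Among the cross-linking enzymes, LOX itself and LOXL2 overlapped between the lines. LOX (NM_001178102) averaged 0.138 ± 0.0821 in MDA-LM2, against 0.151 ± 0.0602 in MDA-MB-231, and LOXL2 averaged 0.105 ± 0.0349 in MDA-LM2, against 0.141 ± 0.0183 in MDA-MB-231. LOXL4 had rates of 0.185, 0.195, 0.393 and 0.0404 in MDA-LM2, against 9.44, 9.28, 9.44 and 9.39 in MDA-MB-231. All 4 MDA-MB-231 rates lay in the cluster above 9, which holds 19 member values of that line, and the difference was -9.19 ± 0.543 (limma, adjusted p = 6.85e-05; adjusted p = 0.000373 with an estimated correlation). How a value in this cluster arises is not given in the sources used here. The LOXL4 difference is therefore not read as a ratio of lifetimes.

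Of the proteases, MMP16 (NM_005941), a membrane-bound metalloproteinase, had the lowest adjusted p of the in-range members. Its rates were 0.212, 0.236, 0.137 and 0.220 in MDA-LM2, against -0.0698, 0.0267, -0.0289 and 0.0201 in MDA-MB-231. All MDA-LM2 rates were far above those of MDA-MB-231, which lay around 0. The difference was 0.214 ± 0.0314 (SE; limma, adjusted p = 0.00827), it passed with an estimated correlation (adjusted p = 0.0342), and it was called in all 8 fits that left out 1 series. MMP14, a related membrane-bound protease, had rates of 0.173, 0.222, 0.174 and 0.168 in MDA-LM2, against 0.203, 0.294, 0.196 and 0.315 in MDA-MB-231, and did not pass (limma, adjusted p = 0.272).

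Of the 3 TIMP transcripts, TIMP2 alone was called over all series with rates as deposited. TIMP2, which inhibits metalloproteinases and helps MMP14 activate another one, had rates of 0.108, 0.114, 0.0752 and 0.109 in MDA-LM2, against -0.0306, 0.0376, 0.0169 and 0.0361 in MDA-MB-231. Each MDA-LM2 rate was higher than every MDA-MB-231 rate, by 0.0866 ± 0.020 (SE; limma, adjusted p = 0.0457). That call was lost with an estimated correlation (adjusted p = 0.179) and held in only 1 of the 8 fits that left out a series.

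TIMP1 had rates of 0.120, 0.0321, 0.147 and 0.0601 in MDA-LM2, against 9.61, 9.60, 9.57 and 0.297 in MDA-MB-231. All MDA-LM2 rates were lower, and the difference of -7.18 ± 2.29 did not pass (limma, adjusted p = 0.108, and 0.359 with an estimated correlation). Without MDA-MB-231 series 4 it was -9.50 and passed (limma, adjusted p = 0.000850). With limited rates it passed (limma, adjusted p = 0.0364), though not with the correlation as well (adjusted p = 0.218). TIMP3, which binds to the matrix, averaged 0.172 ± 0.0193 in MDA-LM2, against 0.151 ± 0.0421 in MDA-MB-231.

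ADAMTS family transcripts had an in-range median of 0.263 ± 0.0635 over the MDA-LM2 series, against 0.205 ± 0.0987 over the MDA-MB-231 series, beside 0.146 and 0.153 over all in-range transcripts. In MDA-MB-231 series 2 the family's median, 0.0857, was below that of all in-range transcripts, 0.139. The members in range with the highest mean in each line were ADAMTSL4, at 0.462 ± 0.128 in MDA-LM2, against 0.393 ± 0.0980 in MDA-MB-231, and ADAMTS16, at 0.383 ± 0.0274 in MDA-LM2, against 0.466 ± 0.279 in MDA-MB-231. ADAMTSL2 was at 0.309 ± 0.0963 in MDA-LM2, against 0.320 ± 0.356 in MDA-MB-231. The series of these 3 transcripts overlapped within each line, so their order is not resolved.

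ADAMTS12 had rates of 0.188, 0.369, 0.273 and 0.248 in MDA-LM2, against 0.104, 0.0857, 0.0445 and 0.176 in MDA-MB-231. The MDA-LM2 rates were the higher ones throughout, by 0.167 ± 0.0452. This did not pass over all transcripts (limma, adjusted p = 0.0752, and 0.292 with an estimated correlation). It did over in-range transcripts alone (adjusted p = 0.0489, and 0.234 with the correlation) and with centred series (adjusted p = 0.0461). ADAMTS9 had rates of 0.110, 0.341, 0.108 and 0.181 in MDA-LM2, against 0.268, -0.257, 0.135 and -0.105 in MDA-MB-231. Its difference had opposite signs in the 2 sets of series (-0.0927 and 0.442) when the lines were matched by second digit, and another matching could differ. The 6 enzyme transcripts not picked by the rule, of ADAMTS3, ADAMTS6, ADAMTSL1 (both rows), MMP24 and LOXL3, had adjusted p of at least 0.459.

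Rates beyond 1 of 0 were mostly those of MDA-MB-231. Of 288 member values in each line, 3 of the MDA-LM2 values (1.04%) and 33 of the MDA-MB-231 values (11.5%) lay beyond, beside 4.24% and 18.3% over all transcripts. The MDA-MB-231 values comprised 19 from 9.21 to 9.65, 9 from 2.21 to 2.82, 1 at 1.53 and 4 below -1. In MDA-LM2, COL10A1, a collagen of growing cartilage, had 9.33 in series 2, and ITGB7, a beta chain of leukocyte integrins, had 9.14 in series 2. The other COL10A1 rates were 0.207, 0.278 and 0.505 in MDA-LM2, against -0.0376, 0.145, -0.00773 and -0.150 in MDA-MB-231. All MDA-LM2 rates of COL10A1 were higher, but the difference did not pass (limma, adjusted p = 0.445).

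ITGB7 had rates of 0.394, 9.14, 0.607 and 0.344 in MDA-LM2, against 9.41, 9.36, 9.42 and 9.42 in MDA-MB-231. It was called only without MDA-LM2 series 2 (-8.95, adjusted p = 4.73e-05). ADAMTS15 had rates of 0.306, 0.425, 0.390 and 0.325 in MDA-LM2, against 9.35, 9.46, 9.35 and 0.349 in MDA-MB-231. COL13A1 (NM_080798), a transmembrane collagen, had rates of 0.143, 0.129, 0.163 and 0.257 in MDA-LM2, against 0.495, 2.27, 9.65 and 2.24 in MDA-MB-231. In these 3 transcripts most or all MDA-MB-231 values lay in a cluster, and none of the 3 passed over all series (limma, adjusted p = 0.0948, 0.114 and 0.290) with rates as deposited. ADAMTS15 passed without MDA-MB-231 series 4 (-9.03, adjusted p = 0.000850), and COL13A1 passed with limited rates (adjusted p = 0.0165; adjusted p = 0.128 with the correlation as well). ITGB2, the beta chain of leukocyte integrins, had 9.21 in MDA-MB-231 series 1 only.

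**Figure D4:**
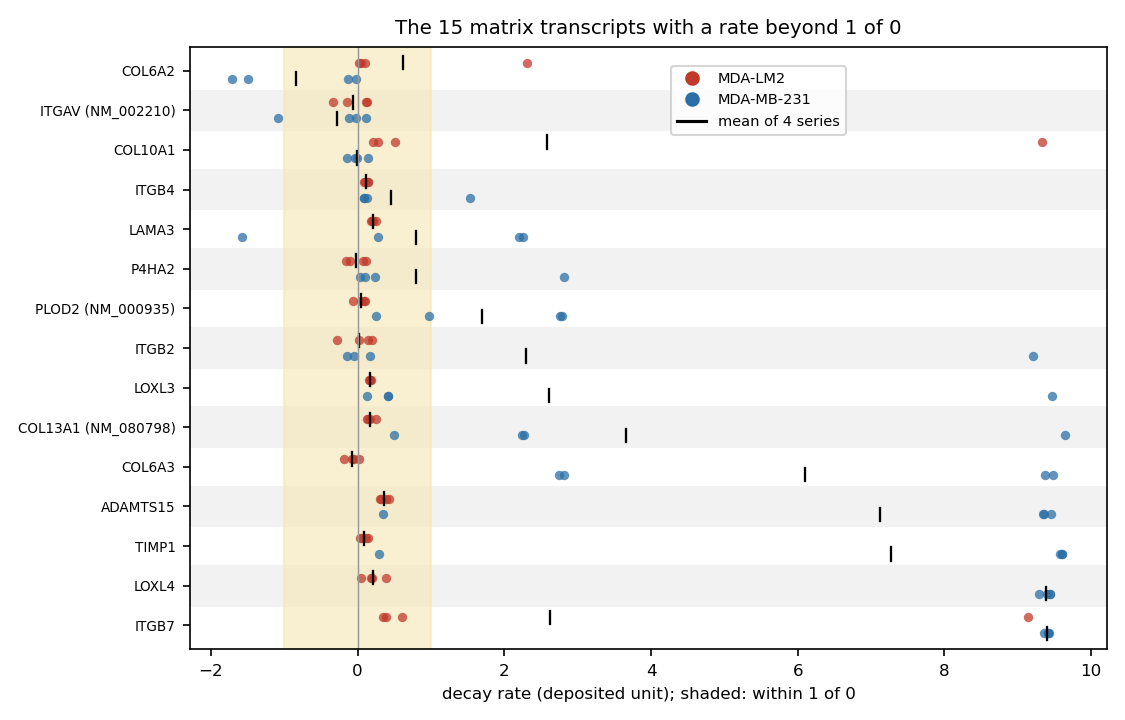
Decay rates in the deposited unit for the 15 matrix transcripts with at least 1 rate beyond 1 of 0, sorted by their MDA-MB-231 mean. Points are series, with MDA-LM2 in red above MDA-MB-231 in blue, black bars are means, and the shaded band is within 1 of 0; 12 of the 15 have an MDA-MB-231 value above 1, and the values gather between 2 and 3 and above 9.

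Other genes of matrix assembly and adhesion were taken from lists chosen with earlier results of these data known. Their counts stand beside 6.04% slower and 1.9% faster of all transcripts. Of the collagen folding and processing list, 9 of 13 genes were measured (11 transcripts), and 1 was slower and 0 faster in MDA-LM2 by limma. The slower one was MIA3, which loads collagen into secretory vesicles, at 0.0933 ± 0.0114 in MDA-LM2, against 0.173 ± 0.0209 in MDA-MB-231 (limma, adjusted p = 0.0324; adjusted p = 0.123 with an estimated correlation). The list's median difference was -0.0563, beside -0.0538 over all transcripts, and -0.0493 in range, beside -0.0166.

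Of other matrix proteins, 8 of 24 genes were measured (13 transcripts), and 4 were slower and 1 faster; fitted on in-range transcripts alone, 1 was slower and 1 faster. The faster one was CCN2, connective tissue growth factor, at 0.652 ± 0.0633 in MDA-LM2, against 0.404 ± 0.0351 in MDA-MB-231 (limma, adjusted p = 0.0211; adjusted p = 0.107 with an estimated correlation). The slower ones were EFEMP2, LTBP2 and 2 of the LTBP1 rows. Only EFEMP2, at -0.364 ± 1.17 in MDA-LM2, against 7.36 ± 0.0985 in MDA-MB-231, passed with an estimated correlation (adjusted p = 0.0186). EFEMP2 and these LTBP1 rows had rates beyond 1 of 0, so their differences are not read as ratios of lifetimes. The other LTBP1 rows were not called, and the in-range ones differed by 0.121 and -0.107 (limma, adjusted p = 0.628 and 0.438).

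Of other matrix receptors, 12 of 14 genes were measured (21 transcripts), with 1 slower and 2 faster. The faster ones were CD81, a tetraspanin that associates with integrins, and a CD44 row (NM_001202557) of the hyaluronan receptor. The other CD44 rows all had a lower mean in MDA-LM2, some with rates beyond 1 of 0. None of those rows was called, and their lowest adjusted p was 0.0948 (limma). CD81 averaged 0.0931 ± 0.0418 in MDA-LM2, against -0.125 ± 0.0650 in MDA-MB-231 (limma, adjusted p = 0.0152; adjusted p = 0.0372 with an estimated correlation). The CD44 row averaged 0.178 ± 0.0416 in MDA-LM2, against 0.0223 ± 0.0263 in MDA-MB-231 (limma, adjusted p = 0.0135; adjusted p = 0.0410 with an estimated correlation). The slower one was RPSA, a ribosomal protein also known as the laminin receptor, at -0.0126 ± 0.0238 in MDA-LM2, against 0.0627 ± 0.00796 in MDA-MB-231 (limma, adjusted p = 0.0306; adjusted p = 0.0997 with an estimated correlation).

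Of the integrin adhesion complex, 20 of 24 genes were measured (29 transcripts), with 1 slower and 0 faster. It was PARVA, which links integrins to actin with ILK, at 0.0195 ± 0.00470 in MDA-LM2, against 0.118 ± 0.0199 in MDA-MB-231 (limma, adjusted p = 0.00830; adjusted p = 0.0593 with an estimated correlation). Of plasminogen activators, sheddases and their inhibitors, 13 of 18 genes were measured (19 transcripts), with 1 slower and 0 faster. It was ADAM10, a sheddase, at 0.0425 ± 0.00855 in MDA-LM2, against 0.109 ± 0.0202 in MDA-MB-231 (limma, adjusted p = 0.0432; adjusted p = 0.205 with an estimated correlation). The median differences of these lists were -0.0911, -0.0753, -0.0869 and -0.0766 in the order given, from other matrix proteins on. In range they were -0.00686, -0.0412, -0.0293 and -0.0326, beside -0.0166 over all in-range transcripts.

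The 3' untranslated region (UTR), where many stability elements lie, was read for 71 of the 72 members from GENCODE release 29 transcripts. Member 3' UTRs had a median length of 1135 bases and a median GC content of 43.2%, against 1020.5 bases and 40.3% for 11328 coding transcripts matched in the same way. By class the median GC content was 41.5% for components, 37.8% for integrins and 47.8% for enzymes. Across the 56 in-range members, GC content and mean rate correlated at Spearman 0.362 in MDA-LM2, against 0.230 in MDA-MB-231, against 0.135 and 0.0306 over 7542 in-range transcripts. Within classes the MDA-LM2 correlation was 0.399 for components, 0.264 for integrins and 0.286 for enzymes. In MDA-MB-231 these were 0.0413, -0.209 and 0.485, so the classes did not share the relation there. These are descriptions across transcripts that share the same series and have related base composition.

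**Figure D5:**
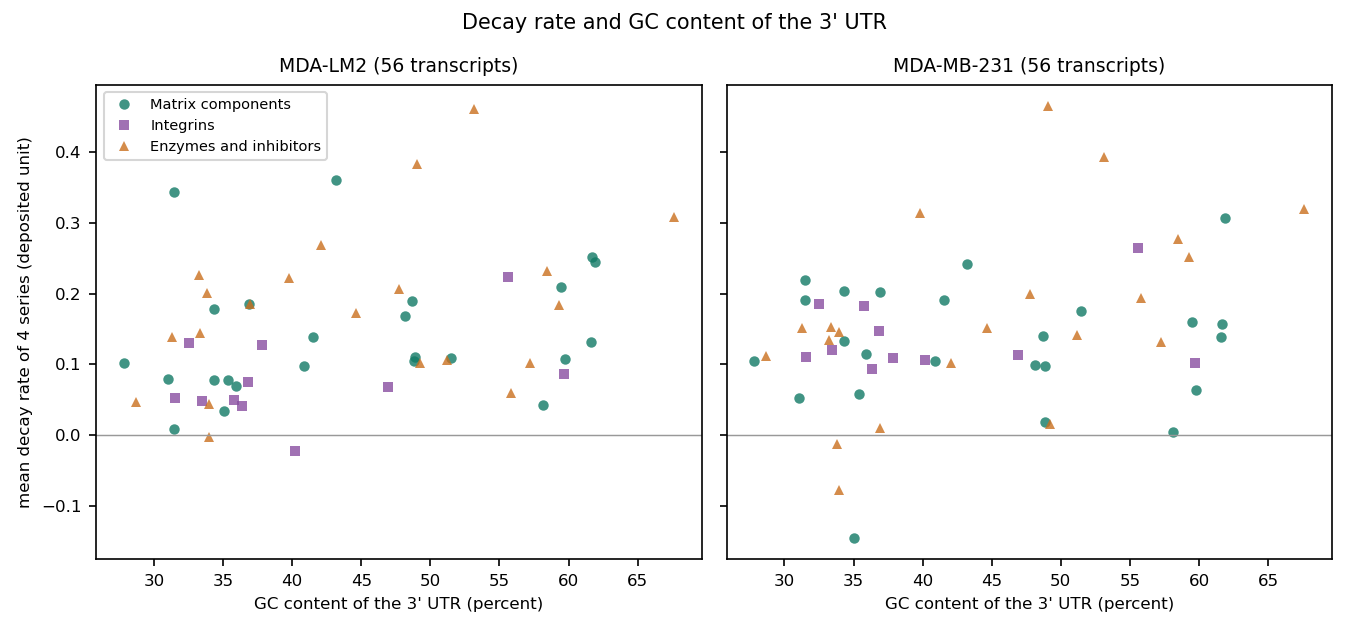
Mean decay rate of 4 series in the deposited unit against the GC content of the 3' UTR in percent, for the 56 in-range matrix transcripts with a matched UTR. MDA-LM2 is on the left and MDA-MB-231 on the right, and shapes mark the classes. Over all classes together the points rise weakly to the right (Spearman 0.362 in MDA-LM2, against 0.230 in MDA-MB-231) with wide scatter. In MDA-MB-231 the classes differed, with 0.0413 for components, -0.209 for integrins and 0.485 for enzymes.

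The AU-rich pentamer ATTTA, searched on the transcript strand with overlaps counted, was present in 77.5% of member 3' UTRs and in 71.0% of all those matched. Its density had Spearman correlations with the mean rate of -0.350 in MDA-LM2, against -0.149 in MDA-MB-231 over the 56 members, against 0.0150 and 0.0728 over all in-range transcripts. Within classes the MDA-LM2 correlation was -0.412 for components, -0.373 for integrins and -0.0631 for enzymes. In MDA-MB-231 these were -0.0394, 0.0364 and -0.412. The longer element ATTTATTTA, of the kind found in unstable cytokine RNAs, was present in 6 members (8.45%), against 6.74% of all transcripts. They were COL10A1, ITGB2, ITGB8, ADAMTSL1 (NM_001040272), ADAMTS6 and MMP16. A site of the first 5 is shown with flanking bases, the element in capitals, to give its context (DNA letters, 5′ to 3′).
COL10A1 (chromosome 6): gagatatattATTTATTTAtgcactgtac
ITGB2 (chromosome 21): ggtggtgccaATTTATTTAcatttaaact
ITGB8 (chromosome 7): cccaatggaaATTTATTTAcacttacctt
ADAMTSL1 (chromosome 9): tcttcattttATTTATTTAtttccccctc
ADAMTS6 (chromosome 5): gtagaagggcATTTATTTAtatgagagca

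The 4 in-range members with this element, 3 of them enzymes, had a median mean rate of 0.204 in MDA-LM2, against 0.193 in MDA-MB-231. The 52 without it had 0.108 in MDA-LM2, against 0.137 in MDA-MB-231, and over all in-range transcripts the medians were 0.149 with and 0.143 without it in MDA-LM2 and 0.163 with and 0.156 without it in MDA-MB-231. Among in-range enzymes alone the medians were 0.206 with and 0.158 without the element in MDA-LM2. In MDA-MB-231 they were 0.200 with and 0.148 without it. The member contrast thus also reflects which classes carry the element. A match to these letters is not a shown binding site. MMP16, with 2 such elements in its UTR of 9452 bases, was the only one of the 6 called between the lines.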

How the data were processed

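RNA from MDA-LM2 and MDA-MB-231 cells was pulse-labelled with 4-thiouridine and sampled over a chase, and the authors deposited 1 decay rate per RefSeq transcript and series, a score in the sense of a number without a fixed range. TopHat, Cufflinks and build hg18 are named per the submitters' processing notes, without versions or roles. Not given in the sources used here are the log base, how time points were scaled to each other, how zeros were handled, and read depth; hence no counting interval is possible. The deposited differential score per transcript was within 0.001 of the sign times 1 minus the p of Welch's unequal-variance test on the rates, positive where decay was slower in MDA-LM2, for all 12966 transcripts.

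Row identifiers were matched to current symbols in the RefSeq gene table (GRCh38.p14; 12644 transcripts) or GENCODE release 29 (118), and 204 had no symbol. No coordinates are given, since the files use hg18. Rates were compared, 4 series per line, with limma 3.58.1 in R 4.3.3 with a variance trend, two-sided, over all 12966 transcripts, with Benjamini-Hochberg adjustment and a threshold of 0.05. A second fit estimated a correlation between series of a line that share the second label number. The main fit was run on rates simulated from in-range transcripts with independent noise. That setting lacks the correlation between series and the clusters beyond 1 of 0, so it does not test the calls under them. Python 3.11.15 with pandas 2.3.3, numpy 2.4.6, scipy 1.17.1 and matplotlib 3.10.9 did the rest. The labels' series numbers did not pair the lines.

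The members, the gene lists and the marker lists were chosen with earlier results of these data known. Transcripts named with values were those past the threshold, the 3 largest differences, the 3 fastest and the 3 slowest of each class among in-range transcripts, the 3 largest differences of each class among the others, and genes fixed for their role. Alternatives were fits without the variance trend or with robust variances, series centred on their median, rates limited to -1 to 1, in-range transcripts alone, 1 median per gene, the deposited score, the correlation, a replicate block, and leaving out each series. The correlation combined with in-range transcripts or with limited rates completes the 19 settings, and both combinations were chosen after seeing the data. Another gene of the set is counted in the totals and is not reported here.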

Additional observations from a re-analysis of the deposited data

Results flagged for a closer look

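Of 110 sets of 4 series (55 transcripts in each line), 16 held a series far from the other 3 by Dixon's criterion; 8 of these were MDA-LM2 sets and 8 MDA-MB-231 sets. The criterion flags about 1 in 20 sets of 4 independent normal values by chance. These transcripts were named partly for large differences, and series sharing the second digit correlate, so that share is not a baseline for these sets.

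Several of these values lay in the clusters beyond 1 of 0. COL10A1 had 9.33 in MDA-LM2 series 2, with the other 3 from 0.207 to 0.505. ITGB7 had 9.14 in MDA-LM2 series 2, with the others from 0.344 to 0.607. COL6A2 had 2.32 in MDA-LM2 series 3, with the others from 0.0247 to 0.103. In MDA-MB-231 series 1, ITGB2 had 9.21 and P4HA2 had 2.82, while their other rates were at most 0.171 and 0.233. ITGB4 had 1.53 in MDA-MB-231 series 4, with the others from 0.0886 to 0.123. For ADAMTS15 and TIMP1 the pattern was turned round in MDA-MB-231, where series 4 had 0.349 and 0.297 and the other 3 lay from 9.35 to 9.46 and from 9.57 to 9.61.

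The other values were in range. In MDA-LM2 series 4, COL6A1 had -0.0176 (others 0.0555 to 0.0690), LAMA5 had 0.303 (others 0.378 to 0.381) and ADAMTS16 had 0.424 (others 0.366 to 0.372). In MDA-LM2 series 3, TIMP2 had 0.0752 (others 0.108 to 0.114), and in series 2 MMP14 had 0.222 (others 0.168 to 0.174). In MDA-MB-231, COL5A1 had 0.112 in series 1 (others 0.148 to 0.151), LAMB1 had 0.0784 in series 2 (others 0.110 to 0.116) and HSPG2 had 0.213 in series 4 (others 0.333 to 0.343).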

How the results depend on the processing

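Over 19 settings and 56 named transcripts, 949 of 1036 differences kept their direction and side of the threshold, 44 fell short of it, 18 newly passed it and 25 changed sign; the cause was not tested. The member calls, 5 slower and 2 faster, became 1 and 1 with the estimated correlation (385 and 37 of all transcripts), 1 and 1 with the replicate block (310 and 31), 2 and 1 with limited rates and the correlation (409 and 37), and 0 and 0 with in-range transcripts and the correlation (0 and 0 of all; 10 members and 1508 transcripts had an unadjusted p under 0.05). The numbers do not pair the lines: deviations of same-numbered series correlated at -0.00320 to 0.00731, and 2 of 4 series correlated best with their own number. Faster member calls were 1 without the variance trend (180 of all), 1 with robust variances (225 of all), 1 by the deposited score (139 of all) and 5 when centred (442 of all); limiting rates gave 9 slower (1010 of all). Leaving out each series gave 3 to 8 slower and 1 to 3 faster members, and 457 to 1082 slower and 91 to 352 faster transcripts. The component median was 0.0279 when centred and -0.00175 to 0.0190 with a series left out; the integrin and enzyme medians stayed below 0 in the alternatives run. Adjusted p over the alternatives ran from 5.79e-10 to 0.0196 for LOXL4, 0.00547 to 0.0907 for MMP16, 0.00820 to 0.113 for PLOD1, 0.0125 to 0.834 for P4HA1 (NM_000917), 0.00860 to 0.799 for FN1 (NM_054034), 0.0272 to 0.215 for COL4A2 and 0.0237 to 0.191 for TIMP2. Sign changed with 1 median per gene for FN1 NM_002026 (-0.0159), P4HA1 NM_001017962 (-0.0139) and ITGAV NM_001144999 (0.0810). It changed when centred for LAMB1 (0.0199), LAMC1 (0.0168), THBS1 (0.00600), ADAMTSL2 (0.0120), LOX (0.00983) and ITGA3 (0.00697). With a series left out, differences ran from -0.0120 to 0.00417 for LAMB1, -0.0168 to 0.0112 for LAMC1, -0.167 to 0.0229 for ADAMTS16, -0.110 to 0.154 for ADAMTSL2, -0.0510 to 0.0153 for LOX, -0.0538 to 0.0150 for PLOD3, -0.00288 to 0.0375 for ITGA2, -0.0518 to 0.349 for ITGAV NM_002210, -3.09 to 0.0254 for ITGB2, -0.463 to 0.0163 for ITGB4 and -0.126 to 0.0194 for ITGB8. Depth is unknown, so its limit on these rates cannot be given.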

Other observations

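Some member rows had rates in only 1 of the 2 tables and enter no comparison, 13 rows of MDA-LM2 and 7 rows of MDA-MB-231. Among the MDA-LM2 rows, ADAMTS1 averaged 0.314 ± 0.146 (SD, n = 4) and ADAMTS4 averaged 0.282 ± 0.163; both proteases cleave proteoglycans. COL17A1, a hemidesmosome collagen, averaged 0.120 ± 0.0623, LAMA4 averaged 0.0427 ± 0.0985, and the integrin chains ITGAX and ITGA10 averaged 0.254 ± 0.0897 and 0.209 ± 0.0269. MMP15 averaged 0.0790 ± 0.111, MMP19 averaged 0.175 ± 0.276, and COL12A1 (NM_080645) averaged 0.143 ± 0.0315. The other MDA-LM2 rows, of LOX (NM_002317), P4HA2, ITGB1 and FN1, had means from -1.91 to 1.14.

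In MDA-MB-231, COL1A1, a chain of the main fibrillar collagen, had rates of 0.306, 0.0821, 9.12 and 0.30. Further MDA-MB-231 rows, of P4HA1, P4HA2, COL6A3, ADAMTS17 and FN1, had means from -4.24 to 5.08, each with an SD of at least 3.77.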
